A study of Homo sapiens with 4 samples.

Results

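The lysosome is the acidic compartment in which cells break down proteins, glycans and lipids taken up from outside or delivered by autophagy. Its membrane is lined with heavily glycosylated proteins, its lumen holds hydrolases that work at low pH, and a proton pump, the V-ATPase, spends ATP to keep the lumen acid. Many of these genes share the CLEAR element in their promoters, which the MiT/TFE transcription factors TFEB, TFE3 and MITF bind, and mTORC1 at the lysosomal surface keeps those factors out of the nucleus when amino acids are plentiful. A named set of 32 such genes was followed here. They were found by symbol in the deposited count table, and all 32 were present among its 22494 features. They comprise 7 membrane and lipid transfer genes, 11 genes for cathepsins, a tripeptidyl peptidase and the saposin precursor, 8 genes for glycosidases and lipid hydrolases, and 6 V-ATPase genes.

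Poly(A) RNA of 2 established human endometrial cancer cell lines was sequenced. The 4 libraries were HEC-1-A cells given a tRF-20-S998LO9D mimic, HEC-1-A cells given the negative control of the mimic, RL-95-2 cells given the mimic and RL-95-2 cells given the negative control. A tRF is a short RNA cut from a transfer RNA, and a mimic is a synthetic copy of it. All 4 libraries come from transfected cells, and no dose or time of transfection is given in the sources used here. Each line is a single tumour-derived line with 1 library per transfection, so mimic and control within a line have no replicate check, and in bulk RNA fewer cells with a transcript and less transcript per cell cannot be told apart.

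Library totals lay between 33575882 counts (the HEC-1-A control) and 46220053 counts (the RL-95-2 mimic). All 6 epithelial markers were above 1 CPM (counts scaled to library size) in every library. Of 5 markers of the Müllerian lineage, 3 were at 1 CPM or more in each library, PAX8, HOXA10 and HOXA11. The progesterone receptor gene PGR was at 0 in all 4. These 5 markers summed to 360 CPM with the mimic and 340 CPM with the control in HEC-1-A. In RL-95-2 they summed to 234 CPM with the mimic and 309 CPM with the control, nearly all of it PAX8 in both lines. Macrophages are rich in lysosomes, but of 7 blood and macrophage markers 4 or 5 were at 0 in each library, and the list summed to at most 0.670 CPM. Epithelial markers summed to 1135 CPM in the HEC-1-A mimic and 1292 CPM in its control library, against 3479 CPM in the RL-95-2 mimic and 2026 CPM in its control library. The RL-95-2 sums differed mainly by KRT8, a keratin gene with 1444 CPM with the mimic and 388 CPM with the control, while EPCAM had 139 CPM with the mimic and 162 CPM with the control and CLDN4 had 109 CPM with the mimic and 155 CPM with the control. Stromal markers summed to 7.80 CPM with the mimic and 4.05 CPM with the control in HEC-1-A, against 58.9 CPM with the mimic and 81.2 CPM with the control in RL-95-2, nearly all of it COL1A1, with DCN at 0 in all 4 libraries. Endothelial markers summed to 0.201 CPM with the mimic and 0 with the control in HEC-1-A, against 24.7 CPM with the mimic and 14.2 CPM with the control in RL-95-2, nearly all of it CDH5, with PECAM1 at 0 in both RL-95-2 libraries. Their part in the results below was not tested. Among all features, many more differed between mimic and control in RL-95-2 than in HEC-1-A. In HEC-1-A, 0.871% of features with a mean of at least 1 CPM were 2-fold or more above the control in the mimic library and 0.239% were 2-fold or more below it. In RL-95-2 the shares were 4.71% higher (619 features) and 6.52% lower (857 features). With scaling by the library total these became 875 higher and 685 lower, so the balance of directions in RL-95-2 depends on the scaling.

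Promoter sequence is shown first, because a shared element is what is best known to link these genes. RefSeq windows (GRCh38.p14), running from 250 bases before to 50 bases after the start of a gene, matched 22 of the 32 genes. The palindrome TCACGTGA, the core of the CLEAR element, was searched on both strands. It was found in 5 of the 22 windows, a share of 22.7%, against 1.04% of 27305 gene windows in all. Among the 14510 windows of genes in the count table the share was 1.46%. The 30 bases around each core are given 5′ to 3′ on the strand of the gene, with the core in capitals. The cores begin 2 and 29 bases before the start of LAMP1, 60 before ATP6V0D1 and 32 and 77 before GAA. For MCOLN1 they begin 15 and 42 bases before the start, and for CTSA 26. The LAMP1 core that begins 2 bases before the start runs past it.
LAMP1 at chr13:113297199-113297228 (+): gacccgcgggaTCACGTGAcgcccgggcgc
LAMP1 at chr13:113297226-113297255 (+): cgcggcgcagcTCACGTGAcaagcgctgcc
ATP6V0D1 at chr16:67481199-67481228 (-): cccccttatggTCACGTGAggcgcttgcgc
GAA at chr17:80101493-80101522 (+): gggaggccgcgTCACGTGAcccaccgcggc
GAA at chr17:80101538-80101567 (+): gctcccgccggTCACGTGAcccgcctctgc
MCOLN1 at chr19:7522571-7522600 (+): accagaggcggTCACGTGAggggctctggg
MCOLN1 at chr19:7522598-7522627 (+): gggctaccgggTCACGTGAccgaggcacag
CTSA at chr20:45891298-45891327 (+): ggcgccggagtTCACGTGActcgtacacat

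The shorter E-box CACGTG, which lies inside that core, was in the windows of 9 of the 22 genes, adding CD63, CTSD, CTSF and NEU1. That is 40.9%, against 7.43% of all windows and 8.95% of those of genes in the count table. TTGCATCA, a composite C/EBP-ATF element of stress-response genes, was in 0 of the 22 windows and in 0.923% of all. Of the windows of genes in the count table, 0.648% held it. These are matches of letters and show neither binding nor its absence. LAMP2, PSAP, CTSB, CTSS, HEXA, ASAH1, ATP6V0E1, ATP6V1A, ATP6V1B2 and ATP6V1H had no window among those available here, so their promoters were not searched.

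Levels between genes were compared per length, in the deposited FPKM (fragments scaled to transcript length and library size). In HEC-1-A, PSAP, the precursor of the saposins that help degrade sphingolipids, had the highest level of the set, at 368 FPKM with the mimic and 394 with the control. CD63, a tetraspanin of late endosomes and lysosomes, followed at 292 FPKM with the mimic and 264 with the control. CTSD, an aspartic protease, came next at 169 FPKM with the mimic and 175 with the control. The median of the 32 genes was 37.5 FPKM with the mimic and 35.7 with the control in HEC-1-A, and 41.2 FPKM with the mimic and 36.2 with the control in RL-95-2. In RL-95-2, PSAP had 256 FPKM with the mimic and 418 with the control, CTSD 214 with the mimic and 185 with the control, and CD63 171 with the mimic and 161 with the control. CTSB stood above all of them there.

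CTSB encodes cathepsin B, a cysteine protease often abundant in carcinomas. In HEC-1-A its level was 52.4 FPKM with the mimic and 57.9 FPKM with the control, against 1691 FPKM with the mimic and 1875 FPKM with the control in RL-95-2. Both RL-95-2 libraries thus lay far above both HEC-1-A libraries. In each RL-95-2 library CTSB ranked 10 among all 22494 features by FPKM, and in HEC-1-A it ranked 1165 with the mimic and 1014 with the control. It took 0.676% of all counts of the RL-95-2 mimic library and 0.668% of those of the control. The other 31 genes together took 0.480% of the counts of the HEC-1-A mimic library and 0.482% of those of its control, against 0.461% with the mimic and 0.484% with the control in RL-95-2.

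**Figure D1:**
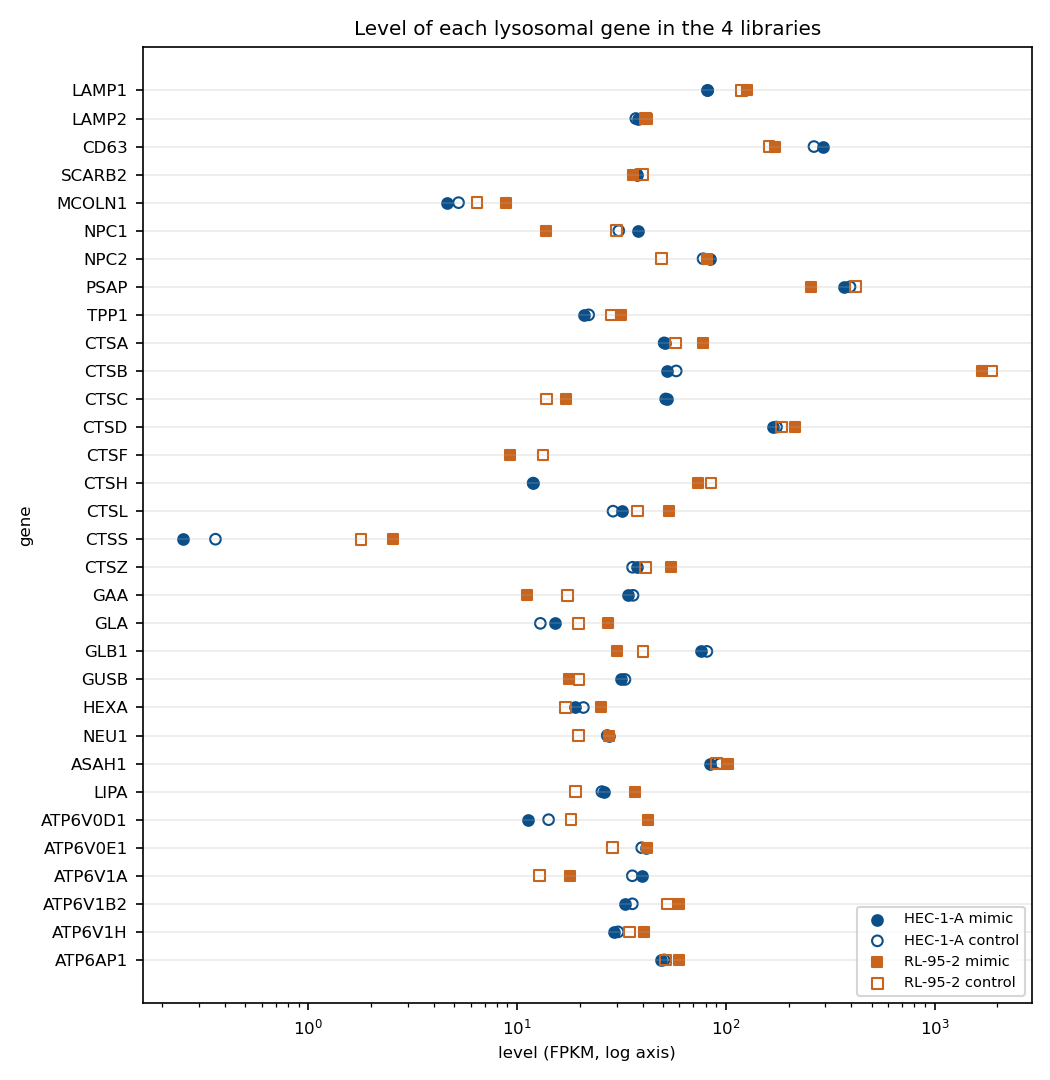
Level of each of the 32 lysosomal genes in FPKM on a log axis, for the HEC-1-A mimic and control libraries (filled and open circles) and the RL-95-2 mimic and control libraries (filled and open squares). CTSB lies at 1691 and 1875 FPKM in RL-95-2 and near 50 to 60 in HEC-1-A, and CTSF, listed at 0 in both HEC-1-A libraries, has no circle.

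The lines were compared with the edgeR quasi-likelihood test (n = 2 libraries per line, the transfection held in the model, Benjamini-Hochberg adjustment over 15957 features). Of the 32 genes, 5 were higher in HEC-1-A than in RL-95-2 (15.6%) and 4 were lower (12.5%). Among all features tested 16.7% were higher and 18.3% lower, 35.1% in either direction, so the count of lysosomal genes that passed is close to the background. All 4 of the lower genes are cathepsins, from a class of 11, and of the 5 higher genes 3 are glycosidases, from a class of 8. Further lysosomal hydrolases and cofactors did not keep to these directions. Of 33 tested, 3 were higher in HEC-1-A (9.09%), the cathepsins CTSK and CTSV and the glycosidase IDUA. Another 9 were lower (27.3%), among them the glycosidases MAN2B1 and FUCA1. The 7 membrane and lipid transfer genes gave 0 calls in either direction, with CD63 nearest at an edgeR adjusted p of 0.054. Over the 32 genes, 14 (43.8%) had an unadjusted p under 0.05, close to the 45.7% of all features. With 1 library per line and transfection, the residual of this fit is how far mimic over control differs between the lines. A p-value here is set against that difference, moderated over features, and not against a spread among replicates. The libraries are also not said to come from separate cultures.

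CTSB was 33.6-fold lower in HEC-1-A than in RL-95-2 (log2 fold change -5.07, SE 0.33, adjusted p = 1.4e-04). CTSH, an aminopeptidase-like cysteine cathepsin, had 30.0 CPM with the mimic and 29.7 CPM with the control in HEC-1-A, against 169 CPM with the mimic and 215 CPM with the control in RL-95-2. It was 6.37-fold lower in HEC-1-A (log2 fold change -2.67, SE 0.25, adjusted p = 5.0e-04). CTSS encodes cathepsin S, which trims the invariant chain of MHC class II in antigen-presenting cells. It had 1.21 CPM with the mimic and 1.69 CPM with the control in HEC-1-A, from 54 and 56 counts, against 11.04 CPM with the mimic and 8.53 CPM with the control in RL-95-2. CTSS was 6.79-fold lower in HEC-1-A (log2 fold change -2.76, SE 0.45, adjusted p = 0.0050). The 7 blood and macrophage markers stood near 0 in both lines, as given above. CD68, a lysosomal membrane gene not on that marker list and chosen after its values were seen, differed in the same direction as CTSS. It had 1.01 CPM with the mimic and 0.785 CPM with the control in HEC-1-A, against 4.93 CPM with the mimic and 7.51 CPM with the control in RL-95-2. The source of the CTSS reads was not tested.

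CTSF, a cysteine cathepsin, was at 0 counts in both HEC-1-A libraries. It had 19.97 CPM with the mimic and 31.4 CPM with the control in RL-95-2. Against a floor of 3 counts per library, CTSF was at least 298-fold lower in HEC-1-A between the mimic libraries and at least 347-fold lower between the control libraries (edgeR adjusted p = 1.9e-04 over both).

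CTSC, which encodes the dipeptidyl peptidase that activates granule serine proteases, went the other way. It had 122 CPM with the mimic and 116 CPM with the control in HEC-1-A, against 36.5 CPM with the mimic and 32.6 CPM with the control in RL-95-2. That is 3.45-fold higher in HEC-1-A (log2 fold change 1.79, SE 0.23, adjusted p = 0.0018). The glycosidase genes GAA, the acid alpha-glucosidase that degrades glycogen, and GLB1, the lysosomal beta-galactosidase, were also higher in HEC-1-A, GAA 2.63-fold (adjusted p = 0.0098) and GLB1 2.38-fold (adjusted p = 0.012). GUSB, the beta-glucuronidase often used as a reference gene in PCR, was 1.78-fold higher in HEC-1-A (log2 fold change 0.83, SE 0.23, adjusted p = 0.033). ATP6V1A, the catalytic subunit of the V-ATPase, had 210.5 CPM with the mimic and 186 CPM with the control in HEC-1-A, against 87.1 CPM with the mimic and 68.3 CPM with the control in RL-95-2. Its level was 2.56-fold higher in HEC-1-A (log2 fold change 1.36, SE 0.23, adjusted p = 0.0061). In each of these genes both libraries of one line lay above both libraries of the other.

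**Figure D2:**
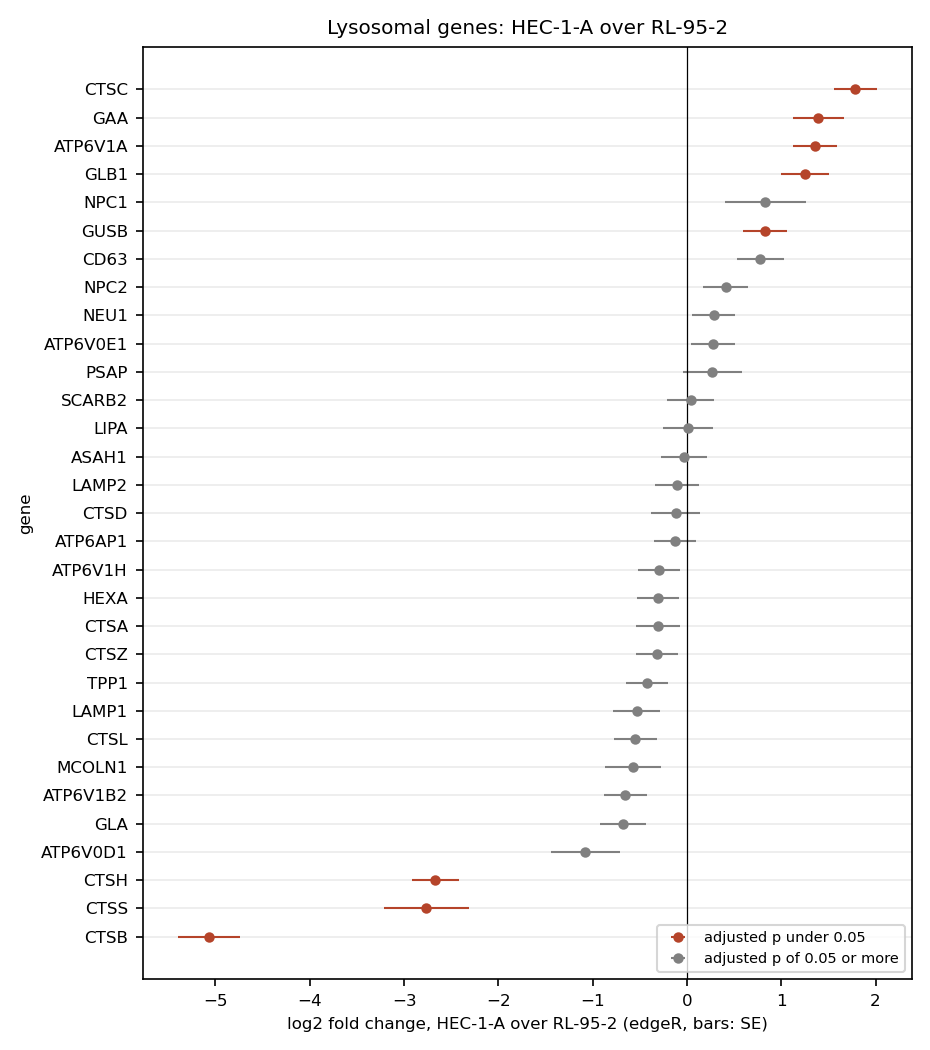
edgeR log2 fold change of HEC-1-A over RL-95-2 for 31 lysosomal genes, with bars of 1 standard error and the genes that passed the adjusted threshold in colour. CTSB, CTSS and CTSH lie far to the left and CTSC, GAA, ATP6V1A, GLB1 and GUSB to the right, and CTSF is left out because both HEC-1-A libraries are at 0.

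The other 23 genes did not pass between the lines. Their fitted log2 fold changes lay between -1.08 for ATP6V0D1 (SE 0.37, adjusted p = 0.063) and 0.83 for NPC1 (SE 0.43, adjusted p = 0.18). Nearest to 0 were LIPA, the lysosomal acid lipase (0.01, SE 0.26), and ASAH1, the acid ceramidase (-0.03, SE 0.24).

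Mimic and control libraries of HEC-1-A differed little in these genes. Of the 31 measured genes, 0 were at least 2-fold apart, and 0 were at least 1.5-fold apart, where 3.44% of all features were higher by that fold and 1.32% lower. The log2 ratio of mimic over control was above 0 for 17 and below 0 for 14, a share above 0 close to the 53.6% of all features. Their median log2 ratio was 0.02, the same as the 0.02 of all features.

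NPC1, which exports cholesterol from the lysosome, had the highest log2 ratio in HEC-1-A. Its level was 209 CPM with the mimic and 162 CPM with the control (log2 ratio 0.37, 95% counting interval 0.32 to 0.42). GLA, the alpha-galactosidase lost in Fabry disease, had 23.2 CPM with the mimic and 19.4 CPM with the control (0.26, interval 0.12 to 0.40). ATP6V0D1, a subunit that couples the membrane sector of the proton pump to its rotor, had 22.3 CPM with the mimic and 27.6 CPM with the control (-0.31, interval -0.44 to -0.18). CTSS had the lowest log2 ratio, -0.47, with an interval of -1.05 to 0.08 that includes 0. The other log2 ratios lay between -0.17 for MCOLN1, a calcium channel of the lysosomal membrane, and 0.18 for ATP6V1A.

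In RL-95-2 the same genes spread more widely. Of 32 genes, ATP6V0D1 alone was at least 2-fold higher with the mimic (4.71% of all features) and NPC1 alone at least 2-fold lower (6.52% of all features). At 1.5-fold, 2 genes were higher, where 14.5% of all features were, and 4 were lower, where 15.5% were. The log2 ratio was above 0 for 18 and below 0 for 14, against 50.1% of all features above 0, and the median was 0.04 beside 0.00 for all features. With scaling by the library total, 23 of the 32 were above 0, against 59.6% of all features, with a median of 0.17 beside 0.13 for all features.

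**Figure D3:**
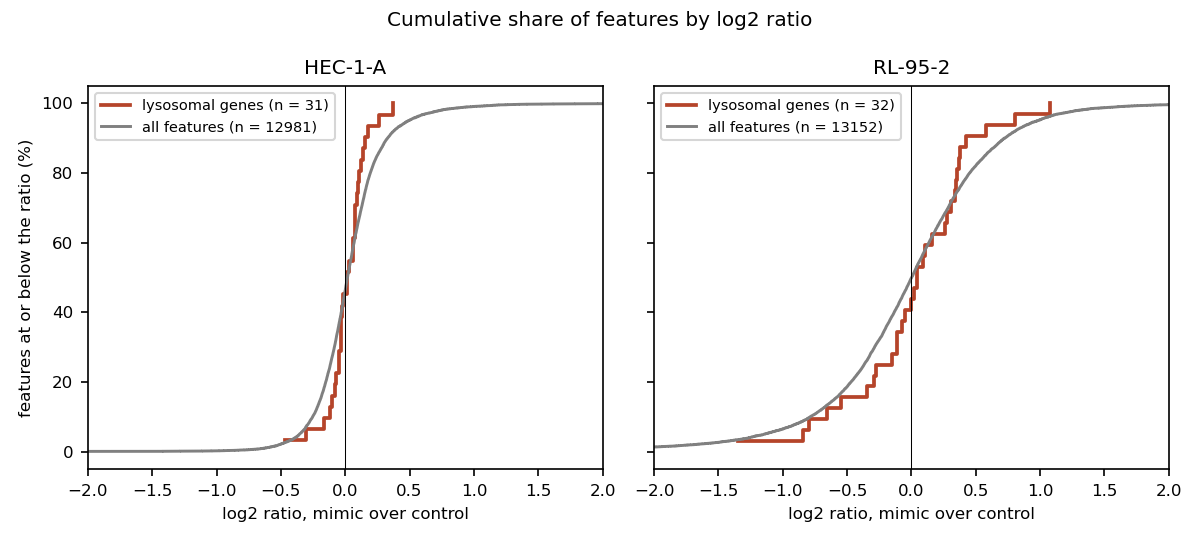
Cumulative share of the lysosomal genes (red) and of all features with a mean of at least 1 CPM (grey) by log2 ratio of mimic over control, in HEC-1-A (left) and RL-95-2 (right). The curves cross 0 close together in both lines, and the medians of the lysosomal genes are 0.02 (HEC-1-A) and 0.04 (RL-95-2), beside 0.02 and 0.00 for all features.

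The membrane and lipid transfer genes of RL-95-2 held the largest contrast of the set. NPC1 had 64.8 CPM with the mimic and 165 CPM with the control in RL-95-2, 2.55-fold lower (log2 ratio -1.35, 95% counting interval -1.41 to -1.29). NPC2 encodes the soluble protein that hands cholesterol to NPC1. It had 88.8 CPM with the mimic and 59.3 CPM with the control, a log2 ratio of 0.58 (interval 0.51 to 0.66). The partners of this hand-over thus had log2 ratios on opposite sides of 0 in RL-95-2, while in HEC-1-A both were above 0, at 0.37 for NPC1 and 0.13 for NPC2.

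The structural membrane proteins differed less. SCARB2, the receptor that carries beta-glucocerebrosidase to the lysosome, had 181 CPM with the mimic and 219.7 CPM with the control in RL-95-2 (log2 ratio -0.28). LAMP1 and LAMP2, the most abundant glycoproteins of the lysosomal membrane, had log2 ratios of -0.05 and -0.11, and CD63 had -0.07. With scaling by the library total these 3 ratios turned to above 0. That scaling moved the median of all features in RL-95-2 to 0.13, so that relative to the median feature they stayed below it. MCOLN1 had 19.3 CPM with the mimic and 15.6 CPM with the control in RL-95-2 (log2 ratio 0.31, interval 0.16 to 0.46).

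PSAP had the lowest ratio among the protease and saposin genes. Its level was 775 CPM with the mimic and 1392 CPM with the control in RL-95-2, 1.796-fold lower (log2 ratio -0.84, interval -0.86 to -0.83). In HEC-1-A it had 1219 CPM with the mimic and 1282 CPM with the control, so the RL-95-2 mimic library was the lowest of the 4. CTSF had a log2 ratio of -0.65 in RL-95-2 (interval -0.78 to -0.53) and CTSH -0.35 (interval -0.39 to -0.30). CTSL, a cysteine cathepsin with broad endopeptidase activity, had 96.9 CPM with the mimic and 74.7 CPM with the control in RL-95-2 (log2 ratio 0.38). CTSS had 0.37, CTSA, which protects beta-galactosidase and neuraminidase from degradation, 0.27, CTSZ 0.26 and CTSC 0.16. CTSB, despite its level, had a log2 ratio of only -0.11, which turned to 0.02 with scaling by the library total, and CTSD and TPP1 had 0.10 and 0.02. Cathepsin genes thus lay on both sides of 0 in RL-95-2.

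Among the hydrolase genes of RL-95-2, LIPA had the highest ratio. It encodes the enzyme that frees cholesterol and fatty acids from lipoprotein esters. LIPA had 107.5 CPM with the mimic and 61.6 CPM with the control, 1.75-fold higher (log2 ratio 0.80, interval 0.74 to 0.87). In HEC-1-A the 2 libraries were closer, at 84.3 CPM with the mimic and 79.9 CPM with the control. GAA had 40.6 CPM with the mimic and 70.5 CPM with the control in RL-95-2, 1.73-fold lower (log2 ratio -0.79, interval -0.88 to -0.71). GLB1 had 81.1 CPM with the mimic and 118 CPM with the control in RL-95-2 (log2 ratio -0.55), and GUSB had a log2 ratio of -0.29. NEU1, the lysosomal sialidase that works in a complex with CTSA and GLB1, had 59.3 CPM with the mimic and 46.6 CPM with the control (log2 ratio 0.35), and GLA had 0.34. The members of that 3-protein complex thus had log2 ratios of 0.35 for NEU1, 0.27 for CTSA and -0.55 for GLB1. ASAH1 stood at -0.01 and turned to above 0 with scaling by the library total.

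HEXA, the alpha subunit of beta-hexosaminidase that is lost in Tay-Sachs disease, depended on the unit. By counts, HEXA had 84.4 CPM with the mimic and 94.0 CPM with the control in RL-95-2 (log2 ratio -0.15). By the deposited FPKM it had 25.4 with the mimic and 17.0 with the control, a log2 ratio of 0.57. Among features averaging 1 CPM or more across all libraries, 129 (0.965%) had RL-95-2 count and FPKM ratios that differed by at least 0.5 on the log2 scale relative to the median feature, and HEXA was the only one of the 32 genes among them. No direction is given for HEXA in RL-95-2.

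All 6 V-ATPase genes had log2 ratios above 0 in RL-95-2, with a median of 0.22, where 50.1% of all features were above 0. The lowest of the 6 was 0.04, beside a median of 0.00 for all features. With scaling by the library total, which moves all features up, the lowest was 0.17, beside a median of 0.13 for all features. In HEC-1-A, 2 of the 6 were above 0, against 53.6% of all features, with a median of -0.02. ATP6V0D1 had 76.0 CPM with the mimic and 36.0 CPM with the control in RL-95-2, 2.11-fold higher (log2 ratio 1.08, interval 0.99 to 1.17). The RL-95-2 mimic library was the highest of the 4 for this gene, and the HEC-1-A mimic library, at 22.3 CPM, the lowest. ATP6V0E1, a small membrane-sector subunit, had 62.5 CPM with the mimic and 46.4 CPM with the control in RL-95-2 (log2 ratio 0.43). ATP6V1A had a log2 ratio of 0.35 (interval 0.28 to 0.42). The regulatory and accessory genes ATP6V1H, ATP6V1B2 and ATP6AP1 had 0.09, 0.04 and 0.04, the last 2 with counting intervals that include 0.

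**Figure D4:**
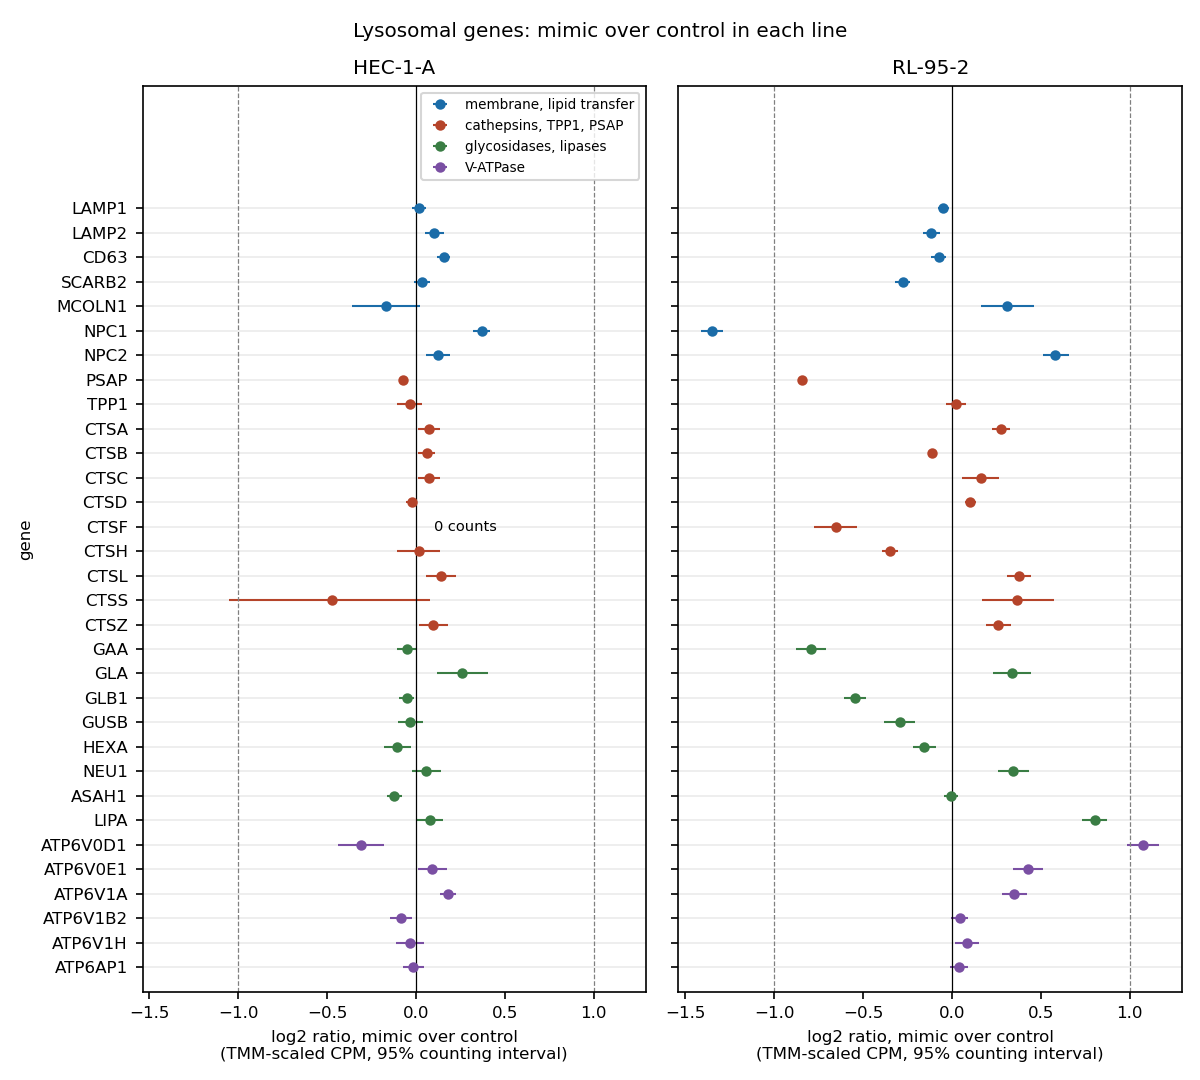
log2 ratio of mimic over control for each of the 32 lysosomal genes in HEC-1-A (left) and RL-95-2 (right), with 95% counting intervals, coloured by class, and dashed lines at 2-fold. In HEC-1-A every measured gene lies between -0.47 and 0.37, and in RL-95-2 the genes run from -1.35 for NPC1 to 1.08 for ATP6V0D1.

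The genes with the CLEAR core had no common direction in RL-95-2. Their log2 ratios were 1.08 for ATP6V0D1, 0.31 for MCOLN1, 0.27 for CTSA, -0.05 for LAMP1 and -0.79 for GAA. LAMP1, GAA and MCOLN1 each have 2 of the cores printed above, and their ratios lay on both sides of 0. In HEC-1-A the same genes had -0.31, -0.17, 0.07, 0.02 and -0.05.

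Between the lines, 15 of the 31 genes measured in both had log2 ratios of opposite sign, where 55.2% of all features did. By TMM-scaled counts the ratio was above 0 in both lines in 10 genes, among them NPC2, LIPA, GLA, ATP6V1A, ATP6V0E1 and CTSL. It was below 0 in both lines in 6, which were PSAP, GAA, GLB1, GUSB, HEXA and ASAH1. Of these, HEXA was above 0 in RL-95-2 by FPKM, and ASAH1 by FPKM and by the library total. Across the 31 genes the log2 ratios of the lines correlated at -0.22 (Pearson) and 0.16 (Spearman), a description over genes that share 4 libraries.

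Over both lines, the edgeR test of mimic over control called 0 of the 32 genes, and 0% of 15957 features passed in either direction. Unadjusted, 167 features and 0 of the 32 genes had p under 0.05. DESeq2 called 1 feature higher and 1 lower and limma-voom 0, none of them a lysosomal gene. The 3 genes of lowest p were LIPA (log2 fold change 0.44, SE 0.27), GAA (-0.42, SE 0.27) and NPC2 (0.35, SE 0.24), each with an edgeR adjusted p of 0.9999 (n = 2 libraries per transfection). The model has 1 residual degree of freedom, so a missed threshold does not show that the genes did not differ.

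Reads of overlapping genes bear on some of these values, because the strand setting of the counting is not given. Exons of 11 of the 32 genes overlap an annotated gene on the other strand (GENCODE 29), among them HEXA, which overlaps HEXA-AS1. For 4 of the 11 the overlapping gene has a row of its own in the count table. NPC1 overlaps C18orf8 (now RMC1), which had 2021 counts with the mimic and 1189 with the control in HEC-1-A, against 1377 with the mimic and 1455 with the control in RL-95-2. LIPA overlaps IFIT2, an interferon-stimulated gene with 478 counts in the RL-95-2 mimic and 294 in its control library, against 5300 and 2402 counts of LIPA itself. NPC2 overlaps ISCA2, and CTSA overlaps NEURL2 and PLTP. On the same strand 6 genes overlap an annotated gene, and for MCOLN1 (PNPLA6) and GLB1 (TMPPE) that gene has a row in the table. PNPLA6 had 7076 counts with the mimic and 4299 with the control in RL-95-2, above the 952 and 607 of MCOLN1 itself. In HEC-1-A it had 1688 and 1380, above the 493 and 410 of MCOLN1. TMPPE had 362 counts with the mimic and 236 with the control in RL-95-2, against 3996 and 4623 of GLB1. The values of GUSB, with 11 annotated pseudogene copies, of CTSL, with 6, and of ATP6V0E1, with 4, are uncertain for the same kind of reason. How far such reads enter the counts was not tested.

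Further genes of the pathway were read from 6 lists, whose highest and lowest ratios are named among genes averaging 5 CPM or more in that line. Among 18 other V-ATPase subunits, 14 were measured in RL-95-2, with a median log2 ratio of 0.08 and 9 above 0, against 50.1% of all features. By the library total 12 were above 0, against 59.6% of all features. ATP6V0E2 was 2.52-fold higher there (30.4 CPM with the mimic and 12.05 CPM with the control), and ATP6V1E2 had -0.76. In HEC-1-A, 11 of 15 were above 0, against 53.6% of all features, with ATP6V1E1 at 0.30 and ATP6AP2 at -0.16. One of the 15, ATP6V0A4, chosen after its values were seen, was 3.08-fold higher with the mimic (246 and 58 counts) and was at 0 in RL-95-2.

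Other lysosomal membrane genes lay mostly below 0 in RL-95-2. Their median log2 ratio was -0.27, and 15 of 20 were below 0, against 49.9% of all features. With scaling by the library total, 14 of 20 were below 0, against 40.4% of all features, with a median of -0.14. LAMP3, a LAMP family member also induced by the unfolded protein response, was lowest, with 6.15 CPM with the mimic and 42.3 CPM with the control in RL-95-2 (log2 ratio -2.77, interval -2.96 to -2.60). TPCN1, a cation channel chosen after its values were seen, was also at least 2-fold lower (-1.03). SLC36A1, a proton-coupled amino acid exporter, was highest at 0.39. In HEC-1-A, where 53.6% of all features were above 0, 13 of 19 were, from CTNS, the cystine exporter, at -0.15 to SLC17A5, the sialic acid exporter, at 0.28.

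Among other hydrolases and cofactors, 18 of 33 were above 0 in RL-95-2 with a median of 0.02, against 50.1% of all features. By the library total it was 23 of 33, against 59.6% of all features. NAAA, an acid amidase, was 2.44-fold higher, with 15.7 CPM with the mimic and 6.43 CPM with the control. GM2A, the activator that presents ganglioside to beta-hexosaminidase, was chosen after its values were seen and was 2.31-fold higher (378 CPM with the mimic and 164 CPM with the control). IDUA, the alpha-iduronidase, was lowest at -0.86. In HEC-1-A, 23 of 32 were above 0, against 53.6% of all features, from HGSNAT at -0.24 to SMPD1, the acid sphingomyelinase, at 0.47. SMPD1 had 0.93 in RL-95-2.

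The MiT/TFE factors and regulators had a median of 0.02 in RL-95-2 and one of 0.06 in HEC-1-A. In RL-95-2, TFE3 had 53.8 CPM with the mimic and 91.5 CPM with the control (log2 ratio -0.76), and FNIP2, a partner of folliculin, was highest at 0.93. In HEC-1-A, MITF was highest, with 131 CPM with the mimic and 93.0 CPM with the control (0.49), and FNIP2 was lowest at -0.34. Between the lines MITF was 7.32-fold higher in HEC-1-A (log2 fold change 2.87, SE 0.30, adjusted p = 8.5e-04). TFEB, chosen after its values were seen, was 2.90-fold lower in HEC-1-A (log2 fold change -1.53, SE 0.32, adjusted p = 0.013). TFE3 did not pass between the lines (log2 fold change 0.29, SE 0.29, edgeR adjusted p = 0.48). Of 18 genes tested on this list, 4 were higher in HEC-1-A (22.2%, against 16.7% of all features), MITF, RPTOR, RRAGA and RRAGD. Another 2 were lower (11.1%, against 18.3% of all features), TFEB and LAMTOR1.

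Genes that tag and sort hydrolases to the lysosome had a median of 0.17 in RL-95-2, with 9 of 13 above 0 (50.1% of all features), and -0.06 in HEC-1-A, with 3 of 13 above 0 (53.6% of all features). IGF2R, the large mannose 6-phosphate receptor that carries tagged hydrolases, had 331 CPM with the mimic and 662 CPM with the control in RL-95-2 (log2 ratio -0.998, interval -1.03 to -0.97). Its level in HEC-1-A was 49.5 CPM with the mimic and 53.8 CPM with the control, 9.08-fold lower than in RL-95-2 (log2 fold change -3.18, SE 0.33, adjusted p = 7.7e-04). NAGPA, the enzyme that uncovers the mannose 6-phosphate tag, was highest in RL-95-2 at 0.84 and lowest in HEC-1-A at -0.26, where GGA3 was highest at 0.22. Of the cystatins, inhibitors of the cysteine cathepsins, 3 of 4 measured were above 0 in RL-95-2 (50.1% of all features), with CST3 at 0.64 and CSTA at -0.49. In HEC-1-A 3 of 3 were above 0 (53.6% of all features), with CST6 at 0.45 and CST3 at 0.07. So few genes give no direction for the list.

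**Figure D5:**
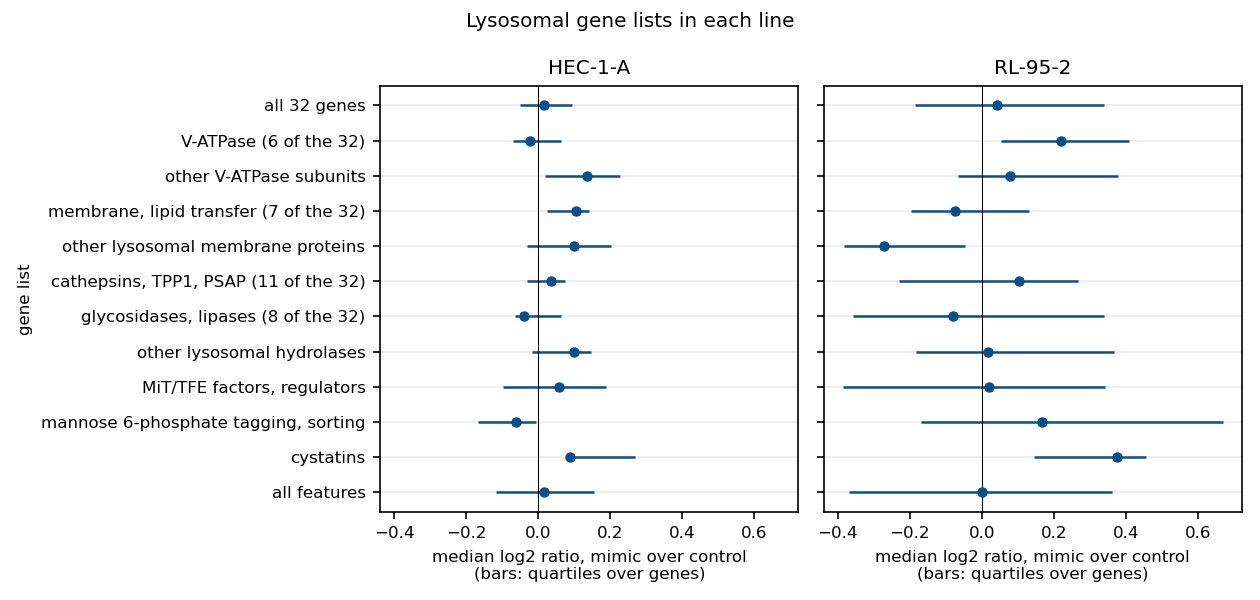
Median log2 ratio of mimic over control, with quartiles over genes, for the 32 lysosomal genes, their 4 classes, 6 further lists and all features, in HEC-1-A (left) and RL-95-2 (right). In RL-95-2 the 6 V-ATPase genes have a median of 0.22 and the other lysosomal membrane genes -0.27, beside 0.00 for all features.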

How the data were processed

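RNA of 4 libraries was analysed from gene-level raw counts and from FPKM, both deposited by the authors. The submitters' processing notes name HISAT2, CASAVA and the build GRCh38 (hg38). No counter, annotation or strand setting is given in the sources used here. Counts were scaled by TMM after edgeR's low-count filter. Within a line the log2 ratio of CPM (prior count 2) has an exact 95% binomial interval from the 2 counts, which, like floors of 3 counts, covers counting error only; genes needed a mean of at least 1 CPM. The fit over 4 libraries used edgeR 4.0.16 (R 4.3.3, quasi-likelihood F test, terms for line and transfection, FDR of 0.05). It was tested on simulated data. Alternatives were DESeq2 1.42.0, limma 3.58.1 (voom, and log2(FPKM + 1) or log2(FPKM + 0.1)), other scalings, filters, prior counts and fold thresholds, and models without a term. Positions came from GENCODE 29 and promoters from RefSeq.

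All 32 genes are reported, and from each further list the highest and lowest ratio in each line among genes averaging at least 5 CPM. Genes and lists were chosen with earlier results of these data known.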

Additional observations from a re-analysis of the deposited data

Results flagged for a closer look

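NPC1 and ATP6V0D1 had log2 ratios of opposite sign in the lines, each with a counting interval away from 0 and the same sign under every scaling and unit tried. For NPC1 the log2 ratio in HEC-1-A minus that in RL-95-2 was 1.72, from 0.37 and -1.35. For ATP6V0D1 it was -1.38, from -0.31 and 1.08. The difference was not tested, since a model with a response for each line has no residual degree of freedom with 1 library per line and transfection.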

How the results depend on the processing

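The 9 calls of lysosomal genes between the lines kept their direction and stayed past the threshold under every tool, scaling and filter that tested them, and in the mimic and control libraries alone each kept its direction. CTSF was removed by the filter of 1 CPM in all 4 libraries. With limma on log2(FPKM + 1) and on log2(FPKM + 0.1), 7 lysosomal genes were lower in HEC-1-A in place of 4. With at least 1 CPM in all 4 libraries, 1673 features were higher and 1671 lower, in place of 2671 and 2923, because fewer were tested.

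Within the lines, NPC1 and ATP6V0D1 stayed at least 2-fold apart in RL-95-2 under every alternative. With a threshold of 1.5-fold, 2 lysosomal genes were higher and 4 lower in RL-95-2. The sign of the log2 ratio held under all alternatives in HEC-1-A for 28 of 31 genes, and in RL-95-2 for 26 of 32. In HEC-1-A it turned for LAMP1, CTSH and CTSB, and in RL-95-2 for LAMP1, LAMP2, CD63, CTSB, HEXA and ASAH1.

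Counts of all features at least 2-fold apart moved more. In HEC-1-A, 113 higher and 31 lower became 13 and 13 on log2(FPKM + 1), 1165 and 703 with no minimum CPM, 18 and 11 at 5 CPM, and 446 and 171 at 1.5-fold. In RL-95-2, 619 higher and 857 lower became 352 and 375, 1691 and 1820, 336 and 606, and 1911 and 2032 in that order. By library total the RL-95-2 counts were 875 and 685. Over both lines, DESeq2 gave 1 feature higher and 1 lower, limma on log2(FPKM + 1) gave 1 lower, and on log2(FPKM + 0.1) 2 higher and 1 lower, in place of 0. For LIPA, GAA and NPC2, leaving out a line gave 0.08 to 0.80, -0.79 to -0.05 and 0.13 to 0.58. Without the block for the cell line, 0 of the 32 genes passed over both lines, as with it. The causes were not tested.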

Other observations

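CTSB lies on chromosome 8 at 11842524 to 11869448 (GRCh38). The 3 nearest tested protein-coding genes on its lower-coordinate side were also lower in HEC-1-A than in RL-95-2, by edgeR with adjustment over all features. Among all features tested, 18.3% were lower and 16.7% higher. FDFT1, the squalene synthase gene, was 1.76-fold lower (adjusted p = 0.042), NEIL2, a DNA glycosylase gene, 2.19-fold lower (adjusted p = 0.016), and FAM167A 12.6-fold lower (adjusted p = 0.013) at a mean of 0.643 CPM in HEC-1-A and 8.28 CPM in RL-95-2. The 3 nearest on the other side, FAM86B1, FAM86B2 and LONRF1, did not pass (log2 fold changes of 0.10, 0.64 and 0.23). CTSB itself was 33.6-fold lower (log2 fold change -5.07, SE 0.33), beside a log2 fold change of -3.65 (SE 0.78) for FAM167A. The cause of these differences was not tested. ATP6V1B2, ASAH1 and ATP6V1H, lysosomal genes farther along chromosome 8, had log2 fold changes of -0.65, -0.03 and -0.30. Their edgeR adjusted p-values were 0.071, 0.94 and 0.34. These neighbours were chosen after the CTSB value was seen.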
